A study of Homo sapiens with 6 samples.

Results

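The genes described here are 36 genes of cholesterol and fatty acid synthesis, taken by name from a table of 17860 genes measured by RNA-Seq in HCC1806/HM3 cells. They comprise 7 enzymes of the mevalonate pathway and 11 enzymes that turn its product into cholesterol. A further 4 are genes of SREBP control, 6 of sterol transport and 8 of lipogenesis. The rule took them by gene name, but the names were proposed with earlier results of these data known. The shares called below are therefore not an unbiased contrast with all tested genes. HCC1806/HM3 derives from HCC1806, an established line of human breast squamous cell carcinoma. It was selected by repeated recovery of cells from liver metastases after injection into the mammary fat pad of nude mice. Lentivirus had brought in either a control hairpin (shNC, 3 samples) or a hairpin directed at MSLN (shMSLN, 3 samples), and both groups had been kept under G418 until stably infected populations remained. The study's methods list more than 1 shRNA against human MSLN and the labels do not say which of them these samples carried, and nothing says that the 3 samples of a group came from separate cultures, so the p-values below measure only the spread between these samples. All 36 genes had a value in all 6 samples and all passed the filter on low counts.

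Cells make cholesterol and fatty acids from acetyl-CoA. The SREBP transcription factors, held in the endoplasmic reticulum by SCAP and INSIG proteins when sterols are plentiful, are released when sterols fall, and switch on the enzymes of both pathways together with genes of sterol uptake and transport. SREBF2 encodes the form best known for the cholesterol enzymes and SREBF1 the forms best known for lipogenesis, whereas LXR receptors, which sense oxidised sterols, switch on the exporters ABCA1 and ABCG1.

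In shMSLN cells 15 of the 36 genes were lower than in shNC cells, 1 was higher and 20 did not pass the test (edgeR's quasi-likelihood test, Benjamini-Hochberg adjusted p below 0.05 over 14552 genes). The falls lay mostly in lipogenesis, where 7 of 8 genes fell, among them FASN, ACACA and SCD, and in the late sterol enzymes, where 5 of 11 fell. Of the 7 mevalonate enzymes 0 were called in either direction by the edgeR test above, DESeq2 or limma-voom. Among them 1 (PMVK) had an unadjusted p below 0.05 in that edgeR test. PMVK was called higher under 5 of 18 alternative settings, among them edgeR fits with another scaling. The difference between branches was not tested. No change exceeded 0.51 on the log2 scale in size. The steepest fall was that of FADS2, to 70.4% of its shNC mean, and the single rise was that of the fatty acid elongase ELOVL6, to 122%. These counts stand beside a comparison in which much of the transcriptome moved: 18.0% of all tested genes were called lower and 16.6% higher. The lowest of the genes described here had a mean of 9.36 CPM (read counts scaled to library size). Among the 10643 genes at or above that level, a subset formed after the data had been seen, 22.0% were called lower and 17.3% higher. The median log2 fold change was -0.12 over the 36 genes and 0.0019 over all tested genes.

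The split of the calls depended on how the libraries were scaled. RLE scaling left it at 1 higher and 15 lower. With upper-quartile scaling 3 of the 36 genes were called higher and 14 lower, and with library totals alone 3 higher and 15 lower. The added rises were those of PMVK and TM7SF2.

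**Figure D1:**
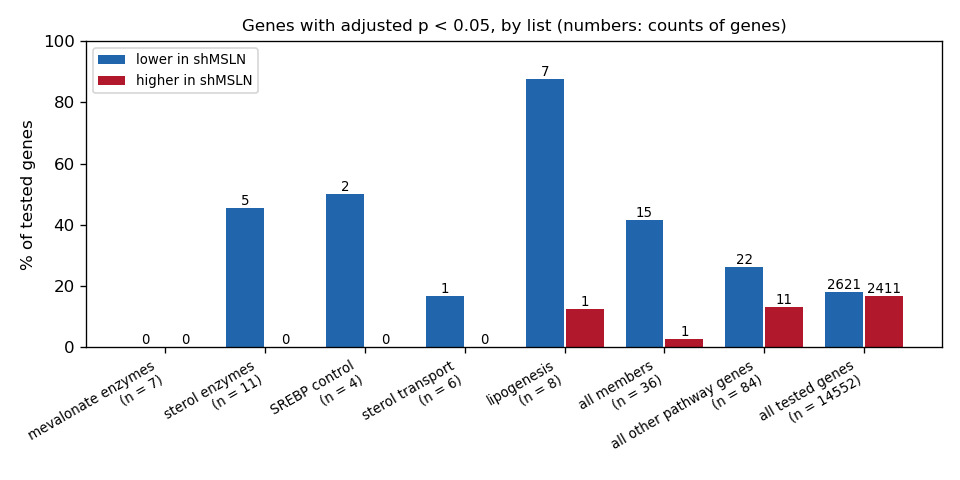
Share of tested genes called lower (blue) or higher (red) in shMSLN against shNC, in % on the y axis, for the 5 branches, all 36 genes, 84 other lipid genes and all 14552 tested genes; the number above each bar is the count of genes. Lipogenesis stands at 7 of 8 genes lower and the mevalonate enzymes at 0 of 7.

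MSLN, the targeted gene (NCBI Gene 10232, chr16:760762-768865 on GRCh38), which encodes the cell surface protein mesothelin, stood at 231, 226 and 227 CPM in shNC and 37.1, 36.2 and 35.4 CPM in shMSLN. Its log2 fold change was -2.65 ± 0.042 (SE, 3 against 3 samples, edgeR adjusted p = 3.97e-15). The samples held between 17507837 and 18512135 estimated counts. In shMSLN samples 2 and 3, 47.7% of the values over 100 reads were whole numbers, against 3.36% to 7.02% in the other 4 samples, and 18 of the 36 genes had a whole value in each of these 2 samples, against 1 or 2 elsewhere. Results are therefore also given without shMSLN samples 2 and 3 where that changed a call. Epithelial and squamous markers summed to 3714 to 4159 CPM over 8 markers in shNC and 3263 to 3366 CPM in shMSLN. KRT5 was the highest of them, at a mean of 2270 CPM in shNC and 1749 CPM in shMSLN. KRT14 was the lowest, at a mean of 3.52 and 3.98 CPM. KRT5, KRT6A, KRT18 and TP63 were lower in shMSLN (log2 fold changes of -1.04 for KRT6A and -0.38 for KRT5, edgeR adjusted p = 4.12e-07 and 1.40e-05). CDH1 and KRT17 were higher (0.15 and 0.16, edgeR adjusted p = 0.00581 and 0.00954). The part of this shift in the lipid genes was not tested. The listed markers of other cell types gave smaller sums, and none was at 0 in all samples. Over the listed genes with a value they summed to 2.58 to 4.40 CPM for adipocytes, 7.32 to 9.94 CPM for endothelial cells, 23.8 to 28.1 CPM for immune cells and 34.3 to 37.7 CPM for fibroblasts. COL1A1 made up most of the fibroblast sum (means of 31.0 CPM in shNC and 31.4 CPM in shMSLN). CD68 made up most of the immune sum (23.8 and 22.0 CPM). Both lay above some of the 36 genes, such as PMVK (16.3 and 18.7 CPM). For hepatocytes 3 markers were in the table. Their sum was 14.97 to 16.4 CPM in shNC and 17.5 to 30.2 CPM in shMSLN, nearly all of it transferrin (TF), and albumin (ALB) had a mean below 0.05 CPM in both groups. Of 12 tested markers of these other types DCN, VWF and TF were higher in shMSLN, and their part in the lipid genes was not tested. In such bulk samples fewer cells of a type and less RNA per cell cannot be told apart.

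Because the genes of these pathways are known for shared promoter elements, the 250 bases before each start in the RefSeq promoter table of GRCh38.p14 were searched on both strands for 3 motifs. These were the sterol regulatory element form TCACNCCAC, the E-box CACGTG and the NF-Y box CCAAT. No match of one motif shared bases with a match of another, and 31 of the 36 genes had at least 1 window (43 windows in all). For 36 of the 43 windows, bases after the start lay in a GENCODE release 29 transcript of the gene. All 43 windows were kept. CCAAT was found in 58.1% of these windows and in 32.0% of all 35116 windows, CACGTG in 11.6% and 6.34%, and TCACNCCAC in 2.33% (1 window, that of SREBF2) and 0.883%. Windows of the same gene can overlap, as in ACLY and SC5D, so the same match can count in more than 1 window. By gene, CCAAT was found before 9 of the 12 genes that fell and had a window, and before 12 of the 18 that were not called. The box was thus present before both kinds of gene, and a match is a description of the letters and not of a bound site. The following stretches come from SREBF2, as the 1 window with TCACNCCAC, and from 1 gene of each of the 5 branches. In each branch the gene with the lowest log2 fold change was taken, among those with a CCAAT box in a stretch free of coding exons. Motifs are in capitals, as CCAAT or as its reverse complement ATTGG (and TCACCCCAC in SREBF2), 5′ to 3′ on the strand of the gene.
SREBF2: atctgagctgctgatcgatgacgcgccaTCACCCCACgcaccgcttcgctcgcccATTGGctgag
HMGCS1: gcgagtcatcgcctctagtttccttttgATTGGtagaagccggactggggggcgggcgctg
MSMO1: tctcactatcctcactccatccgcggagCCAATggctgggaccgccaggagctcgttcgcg
INSIG1: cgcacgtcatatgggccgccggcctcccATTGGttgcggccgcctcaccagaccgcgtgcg
STARD4: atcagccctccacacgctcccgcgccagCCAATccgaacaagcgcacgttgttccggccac
ACACA: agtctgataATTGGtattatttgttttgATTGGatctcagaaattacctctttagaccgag
On GRCh38.p14 these lie at chr22:41832944-41833008 (SREBF2, plus strand), chr5:43313535-43313595 (HMGCS1, minus), chr4:165327502-165327562 (MSMO1, plus), chr7:155297680-155297740 (INSIG1, plus), chr5:111512633-111512693 (STARD4, minus) and chr17:37299871-37299931 (ACACA, minus, before an internal start of that gene). None of them overlaps an exon of a protein-coding gene in GENCODE release 29. SREBF2, with both the sterol regulatory element form and the CCAAT box in reverse in 1 stretch, fell. MSMO1, INSIG1, STARD4 and ACACA were called lower and HMGCS1 was not called. These 5 genes were picked by low fold change, so their calls do not bear on the box.

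**Figure D2:**
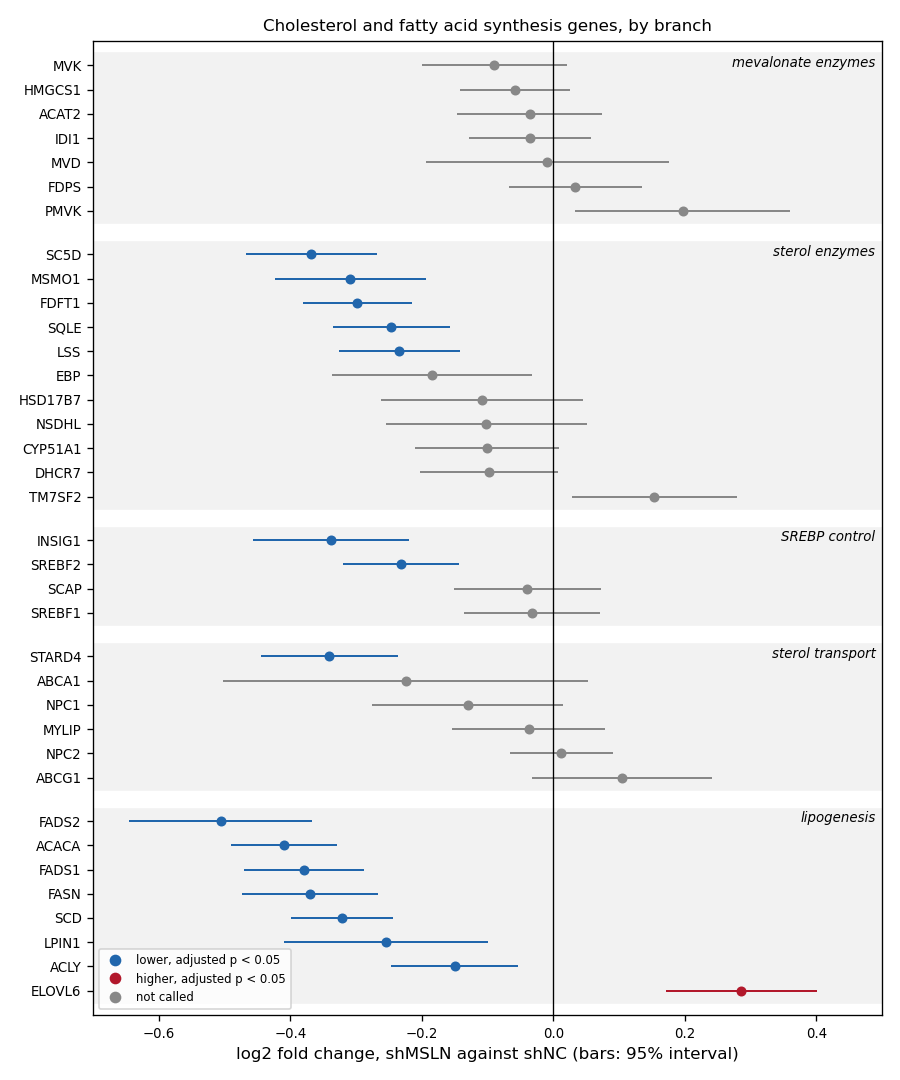
Log2 fold change of each of the 36 genes in shMSLN against shNC (x axis), with 95% intervals as bars, grouped by branch and ordered within it; blue marks genes called lower, red the gene called higher and grey those not called. The 4 lowest estimates are those of lipogenesis genes, and the intervals of 6 of the 7 mevalonate enzymes include 0.

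The mevalonate enzymes carry acetyl-CoA to farnesyl diphosphate, the last common precursor of sterols and isoprenoids. Their TPM (a level scaled for transcript length and depth) summed to 454 ± 11.7 in shNC and 464 ± 2.23 in shMSLN (SD, n = 3 each). HMGCS1, which makes HMG-CoA and is a textbook SREBP target, stood at 129.9, 134 and 131 CPM in shNC and 127, 130.0 and 123 CPM in shMSLN. The groups overlapped and the log2 fold change was -0.058 (95% interval -0.14 to 0.026). ACAT2, the cytosolic thiolase at the start of the pathway, had a log2 fold change of -0.036 (-0.15 to 0.074). IDI1, the isopentenyl diphosphate isomerase, had -0.036 (-0.13 to 0.058), and FDPS, the farnesyl diphosphate synthase, 0.033 (-0.068 to 0.13). For these 4 genes a fall as steep as that of ACACA or FASN lay outside the interval.

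The kinases and the decarboxylase of the middle of the pathway were less alike. MVK, the mevalonate kinase, was below every shNC sample in each shMSLN sample, at 39.5, 38.1 and 39.6 CPM in shNC against 36.9, 35.95 and 37.3 CPM in shMSLN, but its log2 fold change of -0.090 did not pass the test (edgeR adjusted p = 0.196). PMVK, the phosphomevalonate kinase, was the opposite case, at 17.1, 15.9 and 15.9 CPM against 20.2, 17.6 and 18.2 CPM with no overlap. Its log2 fold change of 0.20 ± 0.076 missed the threshold (edgeR adjusted p = 0.0593) and passed it at 0.0326 with upper-quartile scaling and at 0.0324 without shNC sample 1. MVD, the diphosphomevalonate decarboxylase, had the widest spread of the branch, with 32.3 CPM in shNC sample 1 against 24.6 and 25.6 CPM in the other shNC samples. Its log2 fold change was -0.0090 (-0.19 to 0.18) and turned positive with upper-quartile scaling or library totals.

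Past farnesyl diphosphate 5 of 11 enzymes fell. FDFT1, squalene synthase, the first enzyme committed to sterols, stood at 215, 201 and 210.0 CPM in shNC and 172, 172 and 166 CPM in shMSLN. It fell to 81.3% of its shNC mean, a log2 fold change of -0.30 ± 0.039 (SE, n = 3 each, edgeR adjusted p = 3.43e-05). SQLE, the squalene epoxidase, stood at 90.8, 91.0 and 88.9 CPM against 74.5, 77.0 and 76.7 CPM and fell by 0.25 on the log2 scale (SE 0.042, edgeR adjusted p = 3.56e-04). LSS, which closes the ring to give lanosterol, stood at 90.6, 91.1 and 91.5 CPM against 80.3, 76.7 and 75.1 CPM and fell by 0.23 (SE 0.043, edgeR adjusted p = 7.06e-04). The 3 enzymes in a row from farnesyl diphosphate to lanosterol thus all fell, with every shMSLN sample below every shNC sample. Without shMSLN samples 2 and 3, LSS no longer passed (-0.18, edgeR adjusted p = 0.132).

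Of the 8 enzymes after lanosterol, 2 fell. MSMO1, the methylsterol oxidase, stood at 49.1, 52.2 and 54.5 CPM in shNC and 42.0, 43.2 and 40.6 CPM in shMSLN, a log2 fold change of -0.31 ± 0.054 (edgeR adjusted p = 4.57e-04). SC5D, the sterol desaturase, stood at 119.5, 131 and 133 CPM against 95.8, 100.3 and 101 CPM, the steepest fall among the sterol enzymes at -0.37 ± 0.047 (edgeR adjusted p = 2.79e-05). Neither gene's groups overlapped. The others were not called. CYP51A1, the lanosterol demethylase, had a log2 fold change of -0.10 (-0.21 to 0.0080), NSDHL, a sterol dehydrogenase, -0.10 (-0.25 to 0.050), and HSD17B7, a sterol ketone reductase, -0.11 (-0.26 to 0.045). DHCR7, the reductase of a final step to cholesterol, had -0.098 (-0.20 to 0.0069). These 4 estimates lay within 0.02 of each other, and their intervals included 0 but not the estimate of FDFT1.

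EBP, the sterol isomerase, and TM7SF2, a sterol reductase, lay at the border of the test in opposite directions. EBP stood at 28.3, 24.7 and 25.3 CPM in shNC and 24.4, 22.7 and 21.8 CPM in shMSLN (-0.18, edgeR adjusted p = 0.0586) and passed at 0.0335 without shNC sample 2 and at 0.0462 without shMSLN sample 1. TM7SF2 stood at 23.3, 23.3 and 23.5 CPM against 26.4, 26.0 and 25.5 CPM (0.15, edgeR adjusted p = 0.0561), with very little spread in shNC, and passed at 0.0256 with upper-quartile scaling. TM7SF2 was the 1 sterol enzyme of 11 with an estimate above 0. Summed over the branch, TPM went from 697 ± 8.75 in shNC to 617 ± 7.14 in shMSLN (SD, n = 3 each), 88.6% of the control.

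**Figure D3:**
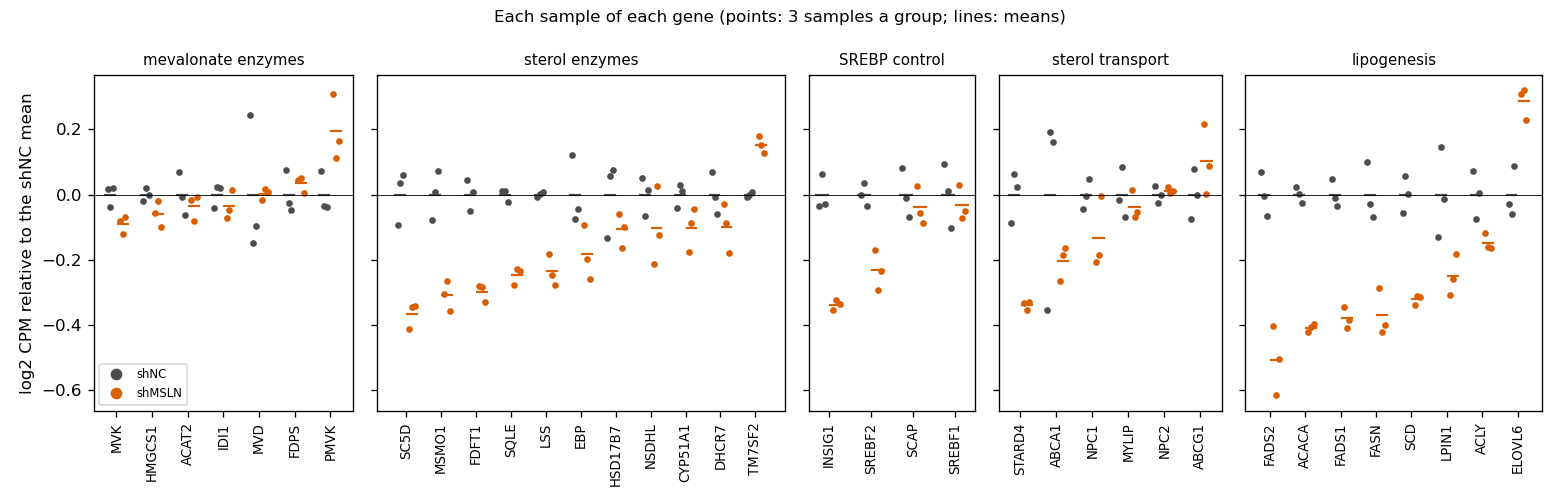
Log2 CPM of each gene in each of the 6 samples relative to the mean of the shNC samples (y axis), with shNC in grey and shMSLN in orange and short lines at the group means. The orange points lie apart from the grey ones for all 8 lipogenesis genes, and the points of the mevalonate enzymes are mixed apart from MVK and PMVK.

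Among the 4 control genes, the retention factor INSIG1 and the transcription factor SREBF2 fell, whereas SREBF1 and the escort protein SCAP did not pass the test. INSIG1, itself a target of SREBPs, stood at 35.2, 37.7 and 35.4 CPM in shNC and 28.2, 28.9 and 28.6 CPM in shMSLN, 79.1% of the control (-0.34 ± 0.056, edgeR adjusted p = 2.96e-04). The shMSLN samples lay within 1 CPM of each other. SREBF2 stood at 180.0, 185 and 176 CPM against 160.1, 147 and 153 CPM (-0.23 ± 0.041, edgeR adjusted p = 5.37e-04), with no overlap. Without shMSLN samples 2 and 3 it no longer passed (-0.17, edgeR adjusted p = 0.132). SREBF1 stood at 208, 196 and 181 CPM against 199, 185 and 188 CPM, and SCAP at 62.4, 58.5 and 56.2 CPM against 60.0, 56.8 and 55.6 CPM. Both overlapped between groups, with log2 fold changes of -0.033 (-0.14 to 0.071) and -0.039 (-0.15 to 0.072), and both estimates turned positive without shNC sample 1 (0.014 and 0.0017). The gene level counts do not separate the SREBP forms made from SREBF1, and mRNA levels do not show how much of either protein was cleaved.

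In sterol transport 1 of 6 genes was called. STARD4, a carrier that moves cholesterol between membranes, stood at 68.3, 75.8 and 73.6 CPM in shNC and 57.5, 56.7 and 57.7 CPM in shMSLN and fell to 79.0% of the control (-0.34 ± 0.049, edgeR adjusted p = 8.78e-05). NPC1 and NPC2, which pass cholesterol out of the lysosome, had log2 fold changes of -0.13 (-0.28 to 0.015) and 0.012 (-0.066 to 0.091). NPC2 was the most abundant of the 36 genes per length, at 411 ± 2.76 TPM in shNC and 424 ± 0.926 TPM in shMSLN. MYLIP, a ubiquitin ligase that is an LXR target and acts on lipoprotein receptors, had -0.038 (-0.15 to 0.079), a sign that turned without shNC sample 2 (0.0062).

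The exporters, both known LXR targets, did not share a sign. ABCA1, the lowest of the 36 genes per length (in TPM), stood at 7.77, 11.4 and 11.1 CPM in shNC and 8.28, 8.75 and 8.87 CPM in shMSLN. Its shNC sample 1 lay below all shMSLN samples while the other shNC samples lay above all of them, and the log2 fold change of -0.22 (-0.50 to 0.053) had the widest interval of all 36 genes. Without shNC sample 1, ABCA1 was called lower (-0.38, edgeR adjusted p = 0.00601). ABCG1 stood at 33.7, 37.5 and 35.5 CPM against 41.3, 35.6 and 37.7 CPM, overlapping, with a log2 fold change of 0.10 (-0.033 to 0.24). In TPM its groups did not overlap, and limma-trend on log2(TPM + 1) called it higher (0.20, adjusted p = 0.0473). The summed TPM of the transport genes was 521 ± 7.89 in shNC and 524 ± 4.36 in shMSLN, and NPC2 made up most of it.

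**Figure D4:**
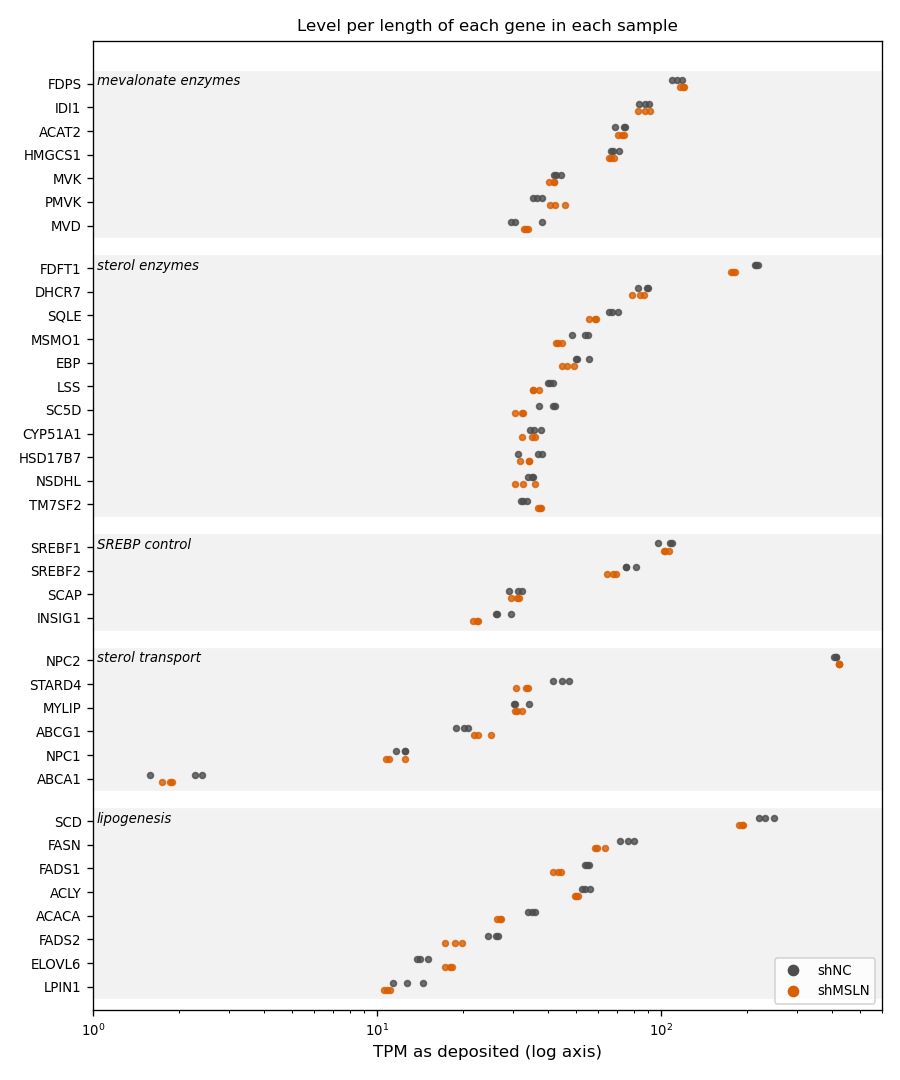
TPM of each gene in each of the 6 samples on a log axis (x), shNC in grey and shMSLN in orange, ordered within each branch by the shNC mean. NPC2 is highest at 411 ± 2.76 TPM in shNC, SCD and FDFT1 follow, and ABCA1 is lowest at 2.10 ± 0.446 TPM.

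Lipogenesis was the branch with the largest share of calls. ACLY, which supplies cytosolic acetyl-CoA from citrate, stood at 113, 102 and 108 CPM in shNC and 99.2, 96.3 and 96.1 CPM in shMSLN and showed the smallest fall of the branch (-0.15 ± 0.045, edgeR adjusted p = 0.0186). The call on ACLY was lost without shNC sample 3, shMSLN sample 2 or shMSLN sample 3 (adjusted p = 0.0607, 0.0814 and 0.0787) and with upper-quartile scaling (0.0510), in the same edgeR test, and with limma-trend on log2(TPM + 1) (adjusted p = 0.0724). ACACA, acetyl-CoA carboxylase, which makes malonyl-CoA, stood at 158, 156 and 152 CPM against 116, 117 and 118 CPM. It fell to 75.3% of the control (-0.41 ± 0.037, edgeR adjusted p = 1.07e-06), the smallest adjusted p of the 36 genes, and the samples of each group lay close together. FASN, fatty acid synthase, which builds palmitate, stood at 319, 291 and 284 CPM against 244, 222 and 226 CPM and fell to 77.4% (-0.37 ± 0.048, edgeR adjusted p = 3.56e-05). These 3 enzymes, which act in a row from citrate to palmitate, thus all fell, ACLY within the limits given.

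The 3 fatty acid desaturases among the 36 genes fell as well. SCD, which makes oleate from stearate and was the most abundant lipogenesis gene per length (234 ± 14.1 TPM in shNC), stood at 543, 587 and 566 CPM in shNC and 447, 456 and 454 CPM in shMSLN (-0.32 ± 0.036, edgeR adjusted p = 8.96e-06). FADS1 and FADS2 desaturate polyunsaturated fatty acids and lie in overlapping positions on chromosome 11 (chr11:61799625-61829318, minus strand, and chr11:61792980-61867354, plus strand, GRCh38). FADS1 stood at 108, 104 and 102 CPM against 82.6, 79.0 and 80.3 CPM (-0.38 ± 0.043, edgeR adjusted p = 8.48e-06). FADS2 stood at 38.1, 36.2 and 34.7 CPM against 27.4, 23.7 and 25.6 CPM, the steepest fall of the 36 genes (-0.51 ± 0.065, edgeR adjusted p = 3.34e-05). Both genes moved in the same direction, and their annotated exons share 490 bases on opposite strands, so that without a statement on strand some reads could count for either. FADS3, the third gene of that cluster, whose exons share no bases with a coding gene in GENCODE release 29, also fell (-0.42 ± 0.079, edgeR adjusted p = 8.44e-04). SCD5, a relative of SCD, overlapped between groups (-0.053, 95% interval -0.18 to 0.074). FADS3 and SCD5 were singled out after their values had been seen.

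LPIN1, a phosphatidate phosphatase that makes diacylglycerol, stood at 27.9, 33.8 and 30.3 CPM in shNC and 24.7, 25.5 and 26.9 CPM in shMSLN (-0.25 ± 0.073, edgeR adjusted p = 0.0138). The lowest shNC sample and the highest shMSLN sample were less than 1 CPM apart, and the call was lost in the same test without shNC sample 2, shMSLN sample 1 or shMSLN sample 2 (adjusted p = 0.0593, 0.0610 and 0.0522), and with limma-trend on log2(TPM + 1) (adjusted p = 0.0826). ELOVL6, which lengthens palmitate to stearate and is a known SREBP target, went the other way. It stood at 42.1, 41.3 and 45.7 CPM against 53.3, 53.7 and 50.4 CPM with no overlap, and rose to 122% of the control (0.29 ± 0.054, edgeR adjusted p = 8.84e-04). This rise was called under all 18 alternatives. The summed TPM of the branch went from 508 ± 14.2 in shNC to 420 ± 2.18 in shMSLN (SD, n = 3 each), 82.7% of the control.

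Taken 1 at a time against the shNC mean, the median log2 change of the 15 genes that fell was -0.31, -0.31 and -0.33 in shMSLN samples 1, 2 and 3. These genes were called in a fit that held all 3 samples, so the medians are a description. Single genes differed more, with FADS2 at -0.40, -0.62 and -0.50 and FASN at -0.29, -0.42 and -0.40 in samples 1, 2 and 3. In 18 of the 36 genes every shMSLN sample lay below every shNC sample and in 3 every one lay above (PMVK, TM7SF2 and ELOVL6), beside 23.5% and 22.7% of all tested genes. Without shMSLN samples 2 and 3, 11 genes were called lower and 1 higher, with ACLY, LPIN1, LSS and SREBF2 lost. That fit takes the lone shMSLN sample to vary like the shNC samples, and it called 1797 genes in all against 5032 with all samples.

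**Figure D5:**
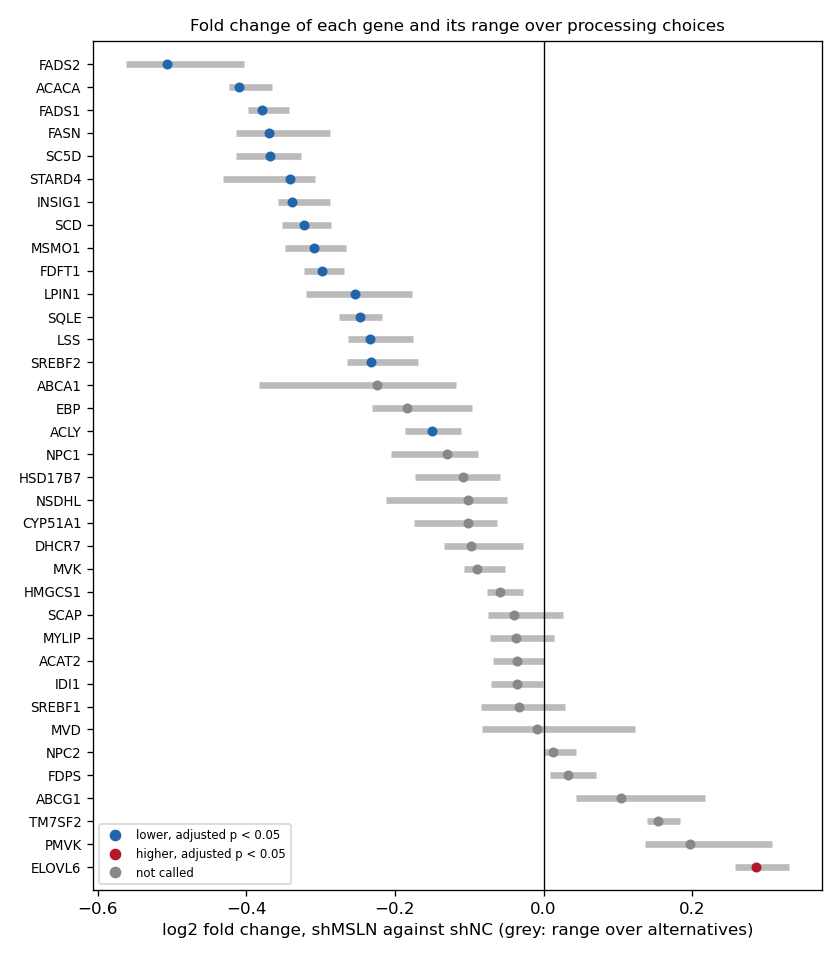
Log2 fold change of each of the 36 genes (points, x axis) and the range of its value over 18 alternative settings (grey bars), coloured by the call as in the plot by branch. The bars of all 15 genes called lower stay below 0 and that of ELOVL6 above it.

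Of 87 further lipid genes in 6 lists, 84 were tested, 22 fell and 11 rose, with a median log2 fold change of -0.023. Over all tested genes 18.0% were called lower and 16.6% higher, beside 26.2% of these 84 genes lower. By list the share lower ran from 15.4% (glycerolipid synthesis) to 42.9% (the 7 genes at the edge of the sterol pathway). The differences from the share over all tested genes were not tested. In fatty acid synthesis beyond the listed enzymes 6 of 23 genes fell and 2 rose. The steepest fall was that of ELOVL4, an elongase of very long chains (-0.67 ± 0.14, edgeR adjusted p = 0.00159). The largest rise was that of HACD2, a dehydratase of the elongation cycle (0.31 ± 0.036, edgeR adjusted p = 1.34e-05). Among 7 tested genes at the edge of the sterol pathway 3 fell and 2 rose. LBR, which anchors lamins and also has the same sterol reductase activity as TM7SF2, fell (-0.47 ± 0.036, edgeR adjusted p = 1.66e-07), and LIPA, the lysosomal acid lipase that frees cholesterol from its esters, rose (0.47 ± 0.039, edgeR adjusted p = 4.04e-07).

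In the next 4 lists between 15.4% and 30% of the genes were called lower, beside 18.0% lower and 16.6% higher over all tested genes. These differences were not tested either. In SREBP and LXR control 3 of 13 further genes fell and 2 rose. MBTPS2, the protease of the second cut that frees SREBPs, fell (-0.35 ± 0.081, edgeR adjusted p = 0.00372), and NR1H3, the LXR alpha receptor, rose (0.28 ± 0.096, edgeR adjusted p = 0.0325). In sterol transport 3 of 10 fell and 2 rose, from STARD5 at -0.46 ± 0.066, a relative of STARD4, to SCARB1 at 0.42 ± 0.073, the HDL receptor (edgeR adjusted p = 8.44e-05 and 5.03e-04). In glycerolipid synthesis 2 of 13 fell and 2 rose. AGPAT3, an acyltransferase, fell by 0.25 on the log2 scale, and LPIN3, a relative of LPIN1, rose by 0.31 (edgeR adjusted p = 1.49e-04 and 3.87e-04). LPIN2, the remaining lipin, had a log2 fold change of 0.0099 (95% interval -0.20 to 0.22) and was added after its value had been seen. In fatty acid oxidation, the pathway that runs against lipogenesis, 5 of 18 fell and 1 rose. PPARA, the receptor that switches this pathway on, fell (-0.46 ± 0.049, edgeR adjusted p = 5.34e-06), and DECR1, a mitochondrial reductase for unsaturated fatty acids, rose (0.27 ± 0.067, edgeR adjusted p = 0.00581).

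Some of the 36 genes can share reads with other loci. By name, GENCODE release 29 holds 8 pseudogenes of FDPS, 3 of CYP51A1, 2 of HSD17B7 and 1 each of SCD and FADS2, and exons of FADS1, FADS2, ACAT2, MVK, CYP51A1, TM7SF2, SREBF1, NPC1 and NPC2 overlap those of another coding gene. Of these FADS1, FADS2 and SCD were called, and the values of all these genes are uncertain to the extent that the counting split such reads.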

How the data were processed

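Poly(A)-selected RNA of 6 samples (3 shNC and 3 shMSLN, grouped by their labels) was sequenced by BGI. The authors deposited 1 table with estimated counts, FPKM and TPM per gene and sample. The submitters' processing notes name genome build GRCh38.p13; the aligner, the quantifier and the annotation are not given in the sources used here. The deposited estimated counts are not scaled to depth, and the deposited TPM values are scaled for length and depth. FPKM was not used. The shMSLN columns hold missing marks for 1287 genes in at least 1 sample; the 16573 complete genes were kept.

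Estimated counts were rounded to whole numbers and tested in edgeR 4.0.16 (R 4.3.3; TMM, filterByExpr, estimateDisp, glmQLFit and glmQLFTest, no covariate), with Benjamini-Hochberg adjustment over 14552 genes and a threshold of 0.05. SEs were obtained from the log2 fold change and the F statistic, and 95% intervals from the t distribution on the fit's degrees of freedom. Levels of different genes were compared in TPM, apart from the CPM minimums used for a background subset and for naming genes. The test was checked on simulated counts. The alternatives were other scalings and filters, DESeq2 1.42.0, limma-voom and limma-trend on log2(TPM + 1) (limma 3.58.1), robust estimation, missing values as 0 counts, a replicate block and leaving out samples. Members and lists were chosen with earlier results of these data known, and no test over a list was made. Genes named in the text are the 36 members, MSLN, the marker genes and, in each other list, the largest rise and fall among called genes whose mean reached 1 CPM; FADS3, SCD5 and LPIN2 are additions. Motif positions and sequences are those of RefSeq promoter windows on GRCh38.p14, which ACAT2, FDFT1, SQLE, ABCG1 and FASN lack, and gene coordinates come from GENCODE release 29 (GRCh38), which may differ from the annotation the authors used. Some genes of these pathways are not reported here.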

Additional observations from a re-analysis of the deposited data

How the results depend on the processing

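Over 18 alternatives the members called lower numbered 11 to 17, and the branch medians kept their sign apart from that of the mevalonate enzymes (0.00072 with TPM). The number called higher was 3 with upper-quartile scaling, 3 with library totals, 2 with the replicate block, 4 with limma-trend on log2(TPM + 1) and 1 to 2 when 1 sample was left out. The median of all members was -0.083 with TPM. Without shMSLN replicates 2 and 3, 1797 genes were called and the median of SREBP control was -0.072. Leaving out 1 sample gave 3695 to 5399 genes and 13 to 16 members called lower. Signs turned only in uncalled genes with small estimates. MVD was 0.020 with upper-quartile scaling, 0.021 with library totals, 0.0014 with limma-voom and 0.037 with TPM, and -0.082 to 0.12 without 1 sample. ACAT2 was 0.00072 with TPM. SREBF1, SCAP and MYLIP were 0.029, 0.026 and 0.014 without shMSLN replicates 2 and 3, and -0.084 to 0.014, -0.075 to 0.0017 and -0.072 to 0.0062 without 1 sample. The cause was not tested. DESeq2 called 3863 genes, with 15 members lower and 1 higher.

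With the replicate number as a block, 5789 genes were called, with 17 members lower and 2 higher (DHCR7, EBP and PMVK were added). Samples of the same number had correlations of their deviations of 0.165, 0.076 and 0.072, and each correlated best with its own number, a hint from the data only; the labels give no shared origin. At this depth a log2 change of the members is known to an SE of 0.036 to 0.13.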
